A study of Mus musculus with 15 samples.

Results

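NRF2, the transcription factor encoded by Nfe2l2, its inhibitor KEAP1 and 8 of their classic antioxidant and detoxification targets were followed in mouse liver after 3 days of diet. The 10 genes (Nfe2l2, Keap1, Gclc, Gclm, Srxn1, Txnrd1, Ephx1, Ugdh, Nqo1 and Hmox1) were chosen by name, as the factor, its inhibitor and targets other than the glutathione transferases. The choice was made with earlier results of these data known, so counts of these genes beside shares of all genes are description only. These genes are 10 of 25731 genes with summed read counts and of 13967 genes tested, and all 10 were tested. Total RNA was sequenced from livers of C57BL/6 mice, an inbred strain. Of 15 libraries, 5 came from mice on a ketogenic diet (KD, very low in carbohydrate), 5 from mice on a high-fat diet (HFD) and 5 from mice on chow (CD). The KD and HFD were fed for 3 days, to mice aged 12 weeks. How old the chow mice were, the sex of all mice and what the diets contained are not stated in the sources at hand. The groups carry no allele or drug, and each library was taken as 1 mouse. The labels do not say that libraries of a diet are separate animals, so p-values measure the spread between these libraries.

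NRF2 binds antioxidant response elements, short DNA sequences in the promoters and enhancers of its target genes, together with a small MAF protein. In unstressed cells KEAP1 holds NRF2 in the cytoplasm and passes it to a CUL3 ubiquitin ligase for destruction; oxidants and electrophiles modify cysteines of KEAP1, and NRF2 then escapes, enters the nucleus and switches its targets on. The targets make glutathione, regenerate thioredoxin and peroxiredoxins, and process quinones, epoxides, glucuronides and heme, all of which are heavily used in the liver. NRF2 is controlled mainly through its protein, which RNA sequencing does not measure.

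In ketogenic livers 4 of the 10 genes were lower than in chow livers, namely Ephx1, Ugdh, Gclc and Gclm, where 14.6% of all genes tested were lower. In high-fat livers these 4 genes and Srxn1 were lower than in chow livers, where 7.32% of all genes were lower. Ephx1 fell by 49.4% in ketogenic and by 50.99% in high-fat livers relative to chow livers. Srxn1, Gclc, Gclm and Nqo1 were higher in ketogenic than in high-fat livers, where 13.1% of all genes tested were higher. Under 23 alternative ways of processing, the call of Gclm there held in 11 and that of Nqo1 in 18. The call of Gclm in ketogenic against chow livers held in 12. Nfe2l2, Keap1, Txnrd1 and Hmox1 did not pass the test in any of the 3 comparisons. In whole liver, fewer cells of a type and less RNA per cell cannot be told apart.

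Promoters are shown for Ugdh, Ephx1 and Gclm, called lower on both diets (Gclm on the ketogenic diet only in 12 of 23 alternatives). The promoter of Srxn1, called lower on the high-fat diet, is also shown. NRF2 acts through such sequences. Each is the RefSeq window (GRCm38.p6) of 250 bases before to 50 bases after the annotated start, 5′ to 3′ on the strand of the gene. Capitals mark the core of the antioxidant response element, TGACNNNGC, or the related form TGAGNNNGC, on either strand, so that a match on the opposite strand is printed as its reverse complement. Ugdh lies at chr5:65435793-65436092 on the minus strand, Gclm at chr3:122245307-122245606 on the plus strand, Srxn1 at chr2:152105274-152105573 on the plus strand and Ephx1 at chr1:181017520-181017819 on the minus strand.
Ugdh: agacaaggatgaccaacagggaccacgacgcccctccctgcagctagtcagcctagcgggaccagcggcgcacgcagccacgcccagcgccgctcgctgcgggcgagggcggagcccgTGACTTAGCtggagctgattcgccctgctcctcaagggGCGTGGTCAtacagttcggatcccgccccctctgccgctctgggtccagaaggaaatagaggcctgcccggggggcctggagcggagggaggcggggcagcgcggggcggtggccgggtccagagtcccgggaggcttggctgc
Gclm: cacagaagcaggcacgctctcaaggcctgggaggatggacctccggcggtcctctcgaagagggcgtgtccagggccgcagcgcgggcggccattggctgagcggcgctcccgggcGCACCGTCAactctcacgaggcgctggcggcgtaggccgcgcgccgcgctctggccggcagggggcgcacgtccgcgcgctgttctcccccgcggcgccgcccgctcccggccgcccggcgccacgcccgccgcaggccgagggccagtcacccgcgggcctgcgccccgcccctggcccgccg
Srxn1: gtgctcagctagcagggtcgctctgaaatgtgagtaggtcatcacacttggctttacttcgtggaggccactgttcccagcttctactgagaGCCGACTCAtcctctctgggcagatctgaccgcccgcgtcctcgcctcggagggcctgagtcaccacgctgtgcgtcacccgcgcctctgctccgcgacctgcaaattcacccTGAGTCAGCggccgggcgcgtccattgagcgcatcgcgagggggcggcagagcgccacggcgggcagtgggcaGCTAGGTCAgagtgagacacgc
Ephx1: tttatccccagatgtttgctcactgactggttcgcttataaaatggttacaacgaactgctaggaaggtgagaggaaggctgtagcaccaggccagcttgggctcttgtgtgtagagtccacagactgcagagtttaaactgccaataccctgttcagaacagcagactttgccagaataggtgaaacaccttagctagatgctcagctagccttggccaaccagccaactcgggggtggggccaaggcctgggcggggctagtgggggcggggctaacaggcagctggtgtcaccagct

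The Ugdh window held 2 matches to TGACNNNGC, TGACTTAGC at 132 bases before the start on the strand of the gene and TGACCACGC at 94 bases before the start on the opposite strand. Relative to the GENCODE start of Ugdh-201 (65435949), the first match lies upstream and the second, at 65435928-65435936, lies downstream. Gclm held 1 match to TGACNNNGC, TGACGGTGC, at 134 bases before the start on the opposite strand. Srxn1 held TGACCTAGC at 28 bases after the start on the opposite strand. Srxn1 also held both matches to TGAGNNNGC found among the 8 genes with a window. TGAGTCAGC lay at 45 bases before the start on the strand of the gene. TGAGTCGGC lay at 158 bases before the start on the opposite strand. The 3 Srxn1 matches do not overlap each other. The Ephx1 window held no match, which says only that these letters are not in these 300 bases. Windows were at hand for 8 of the 10 genes, Gclc and Hmox1 being those without one. TGACNNNGC occurred in 5 of these 8 genes, the other two being Nfe2l2, with TGACTCCGC at 240 bases before the start on the strand of the gene, and Txnrd1, with TGACAAAGC at 92 bases before the start of the second of its 3 windows on the opposite strand. Of all 32851 windows of that length, 12.4% held TGACNNNGC, 17.6% held TGAGNNNGC and 27.8% held either. These are shares of windows, while 5 of 8 counts genes, which have 10 windows, so the 2 are not like measures. The Keap1 and Nqo1 windows held neither. A match is a run of letters, and binding of NRF2 was not measured.

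**Figure D1:**
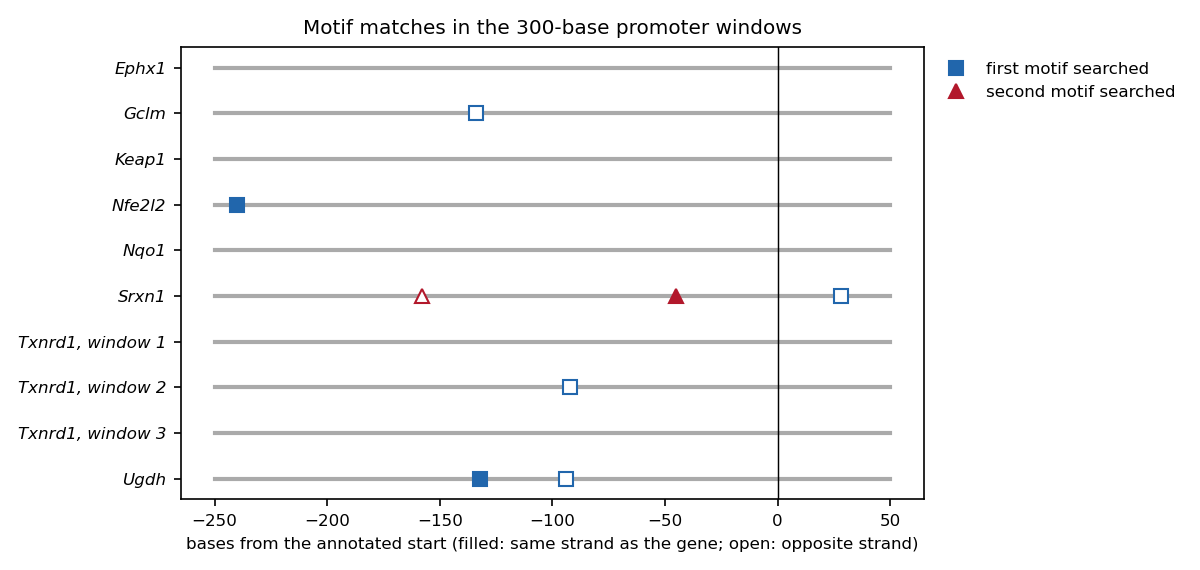
Matches to TGACNNNGC (squares, the first motif searched) and TGAGNNNGC (triangles, the second) in the 10 promoter windows of 8 genes, by distance in bases from the annotated start; filled symbols are on the strand of the gene and open symbols on the opposite strand. Ugdh has 2 matches and Srxn1 has 3, and the windows of Ephx1, Keap1 and Nqo1 are empty.

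All 10 genes are annotated as protein coding, and their positions are those of GRCm38. Nfe2l2 lies at chr2:75675513-75704641 and Keap1 at chr9:21229730-21239361, both on the minus strand. Gclc lies at chr9:77754535-77794485 and Gclm at chr3:122245557-122270732, both on the plus strand. Srxn1 lies at chr2:152105516-152111376 and Txnrd1 at chr10:82833951-82897712, both on the plus strand. Ephx1 lies at chr1:180976210-181020904, Ugdh at chr5:65413221-65435949 and Nqo1 at chr8:107388225-107403206, all on the minus strand, and Hmox1 at chr8:75093621-75100589 on the plus strand. Summed estimated counts were 34707597 to 50914494 per ketogenic library, 30121672 to 44764257 per high-fat library and 30190806 to 43688344 per chow library. Behind a single value of a member stood between 134 estimated counts (Nqo1) and 21328 (Ephx1).

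Levels of different genes were compared per length, as TPM (transcripts scaled by length and depth). Ephx1 was the most abundant of the 10 in each diet, at 214 ± 25.1 TPM in ketogenic, 168 ± 47.0 TPM in high-fat and 329.9 ± 49.7 TPM in chow libraries (SD, n = 5 each). Gclm, Gclc and Ugdh followed, all at 56.4 TPM or more in every library. Txnrd1 and Nfe2l2 came next and overlapped each other in each diet, and Nfe2l2 averaged 35.2 ± 6.33 TPM in ketogenic, 29.7 ± 8.79 TPM in high-fat and 31.2 ± 6.54 TPM in chow libraries. Srxn1 and Keap1 also overlapped each other in each diet. Nqo1 was the lowest, at 4.96 ± 0.34 TPM in ketogenic, 3.09 ± 0.75 TPM in high-fat and 3.74 ± 0.64 TPM in chow libraries.

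The order of neighbouring genes differed between diets in 2 places, each within overlapping ranges. On the ketogenic diet Gclm averaged 172 ± 15.8 TPM and Gclc 145 ± 16.5 TPM, and in high-fat libraries Gclm averaged 129.9 ± 22.8 TPM and Gclc 94.8 ± 21.5 TPM. On chow Gclc stood first, at 160.2 ± 15.4 TPM, with Gclm at 156 ± 13.5 TPM, and in each diet the ranges of the pair overlapped. Srxn1 averaged 14.4 ± 2.68 TPM and Keap1 14.5 ± 1.05 TPM in ketogenic libraries, Srxn1 8.38 ± 1.59 TPM and Keap1 12.0 ± 2.15 TPM in high-fat libraries, and both 12.1 TPM in chow libraries, with overlapping ranges in each diet. Ephx1 overlapped the next gene, Gclm, on both fat-rich diets, and on chow it did not overlap the next gene, Gclc.

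**Figure D2:**
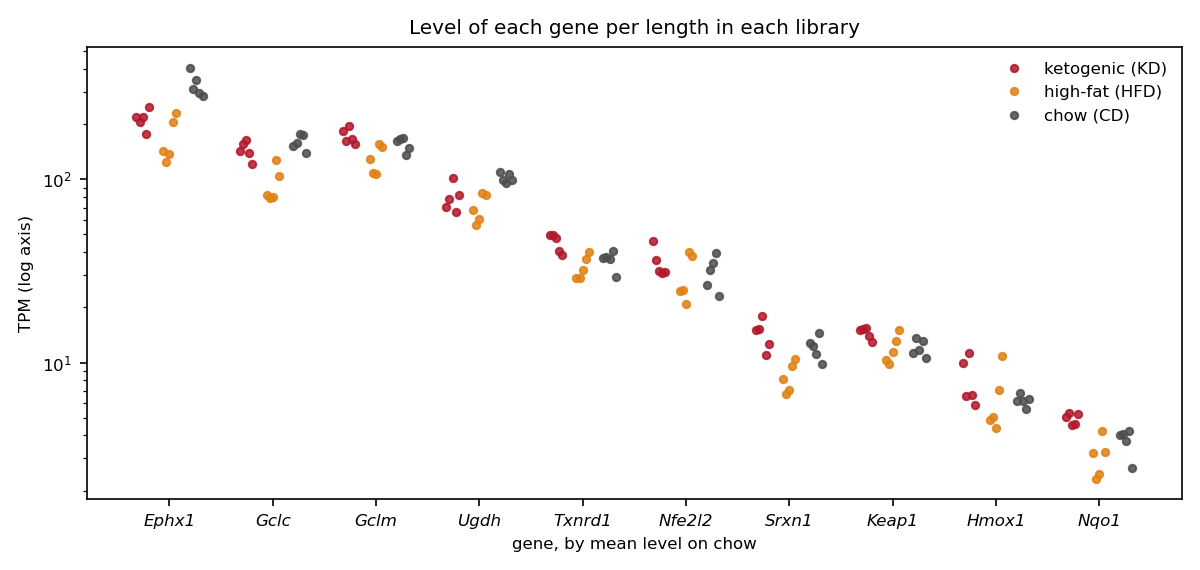
Level of each of the 10 genes per length, in TPM on a log axis, in each of 5 ketogenic, 5 high-fat and 5 chow libraries (1 point per library), with genes ordered by their mean on chow. Ephx1 is highest in each diet and Nqo1 lowest, and the chow libraries of Ephx1 lie at 285 to 408 TPM.

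TPM served only as an alternative for comparing diets, since without scaling between libraries the median gene differed between diets. Its log2 TPM was 0.24 higher in ketogenic than in chow libraries and 0.24 higher than in high-fat libraries. Major urinary protein genes took 3.84 to 6.03% of the reads in ketogenic libraries, 7.71 to 14.4% in high-fat libraries and 8.40 to 14.5% in chow libraries, and their part in that shift was not tested. The main comparison of diets was on normalised CPM, read counts scaled to library size with TMM factors. There the median gene differed on the log2 scale by -0.01 in ketogenic against chow libraries. It differed by 0.01 in high-fat against chow and by -0.02 in ketogenic against high-fat libraries. Fold changes and adjusted p-values are from edgeR's quasi-likelihood test, adjusted by the Benjamini-Hochberg method over 13967 genes, and a gene was called at an adjusted p under 0.05.

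Against chow, 4 of the 10 genes were called lower in ketogenic livers and 0 higher, where 16.2% of all genes tested were higher. In high-fat livers 5 of 10 were called lower than in chow livers and 0 higher, where 8.30% of all genes were higher. Ketogenic against high-fat livers gave 4 of 10 higher and 0 lower, where 13.0% of all genes were lower. Where the count is 0, an unadjusted p under 0.05 gave 0 genes in both comparisons with chow and 1 (Ugdh, lower) in ketogenic against high-fat livers, and DESeq2 gave 0 in all 3. On TPM without scaling between libraries, limma gave 2 higher (Nqo1 and Txnrd1, log2 fold changes 0.38 and 0.32, adjusted p = 0.0471 and 0.0393) and 2 lower (Ephx1 and Ugdh) in ketogenic against chow livers. The median log2 fold change of the 10 genes was -0.11 in ketogenic against chow livers, -0.34 in high-fat against chow livers and 0.10 in ketogenic against high-fat livers. Libraries of the compared diets did not overlap for 3 of 10 genes in ketogenic against chow livers (22.3% of all genes), for 5 of 10 in high-fat against chow livers (10.3%) and for 2 of 10 in ketogenic against high-fat livers (17.0%). The 3 comparisons share libraries, so the 2 counts against chow are not independent of each other.

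**Figure D3:**
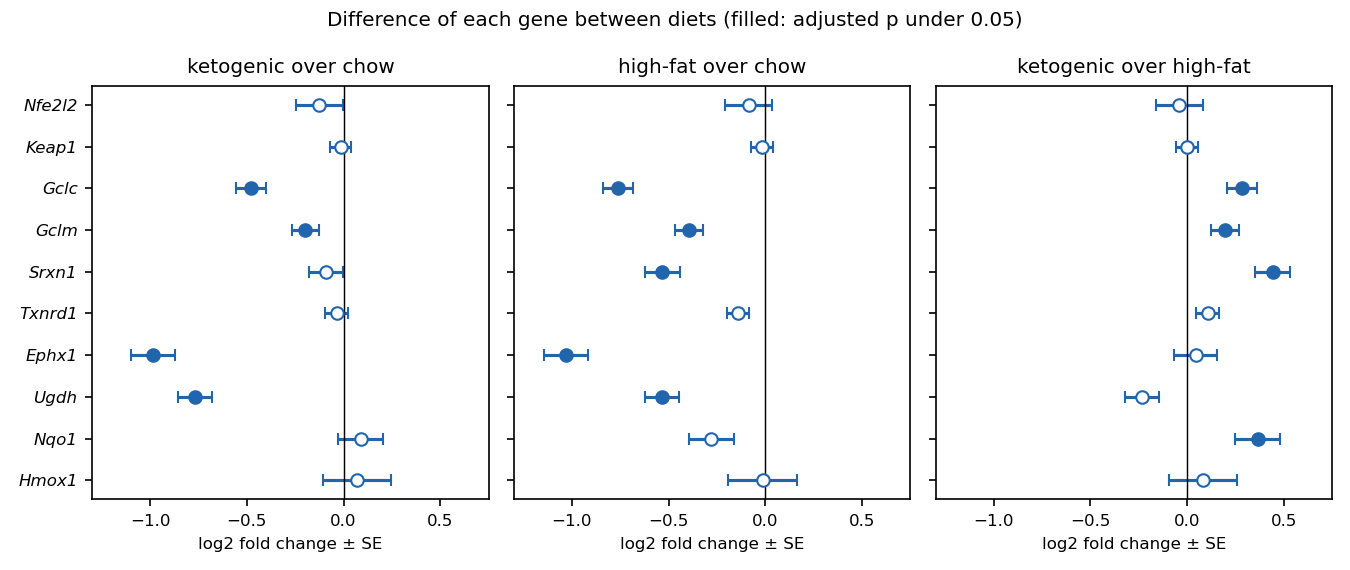
Log2 fold change ± SE of the 10 genes in ketogenic over chow, high-fat over chow and ketogenic over high-fat livers (edgeR, 5 libraries per diet); filled points have an adjusted p under 0.05. Ephx1 lies at -0.98 in ketogenic over chow and at -1.03 in high-fat over chow livers, and Srxn1 at -0.09 and -0.53; on TPM without scaling between libraries, Gclm (0.14), Txnrd1 (0.32), Nfe2l2 (0.18), Keap1 (0.26) and Srxn1 (0.23) were instead positive in ketogenic over chow livers, and Nfe2l2 (0.27) and Ugdh (0.18) in ketogenic over high-fat livers.

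The regulator and its inhibitor showed no called difference. Nfe2l2 had 77.3, 61.8, 53.5, 58.7 and 58.6 CPM in the ketogenic libraries, 61.6, 66.0, 47.4, 75.8 and 68.3 CPM in the high-fat libraries and 61.1, 66.1, 72.9, 79.5 and 58.6 CPM in the chow libraries. All 3 diets overlapped, and the lowest and the highest value were 1 high-fat and 1 chow library. Its log2 fold change was -0.13 ± 0.12 in ketogenic against chow livers (SE, adjusted p = 0.47), -0.09 ± 0.12 in high-fat against chow livers (adjusted p = 0.69) and -0.04 ± 0.12 in ketogenic against high-fat livers (adjusted p = 0.84). Keap1, the substrate adaptor that presents NRF2 to its ubiquitin ligase, had 32.9, 34.6, 33.5, 32.2 and 33.4 CPM in the ketogenic libraries, 29.99, 35.1, 35.2, 31.1 and 35.0 CPM in the high-fat libraries and 33.7, 34.5, 32.9, 35.6 and 31.7 CPM in the chow libraries. Keap1 had the smallest standard errors of the 10 genes, with log2 fold changes of -0.02 ± 0.06, -0.02 ± 0.06 and 0.00 ± 0.06 in ketogenic against chow, high-fat against chow and ketogenic against high-fat livers (adjusted p = 0.87, 0.88 and 0.98). Nfe2l2 reads came almost wholly from 1 transcript, Nfe2l2-201, with 97.5% in ketogenic, 96.1% in high-fat and 95.8% in chow libraries. Keap1 reads were divided mainly between Keap1-205 (74.4, 77.9 and 68.9% in ketogenic, high-fat and chow libraries), a longer transcript (16.3, 13.5 and 16.2%) and Keap1-201, whose share ran from 0 to 32.2% over single libraries. These protein-coding transcripts share most of their sequence, so their shares are uncertain.

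Gclc and Gclm encode the catalytic and the modifier subunit of glutamate-cysteine ligase, the rate-limiting enzyme of glutathione synthesis. Gclc had 343, 379, 395, 374 and 327 CPM in the ketogenic libraries, 299, 306, 265, 355 and 271 CPM in the high-fat libraries and 511, 475, 536, 505 and 511 CPM in the chow libraries. Each chow library lay above each ketogenic and each high-fat library, while 1 high-fat library (355 CPM) reached into the ketogenic range. Gclc fell by 28.3% in ketogenic against chow livers, a log2 fold change of -0.48 ± 0.08 (SE, adjusted p = 0.000129). In high-fat livers Gclc fell by 41.1% against chow, a log2 fold change of -0.76 ± 0.08 (adjusted p = 1.69e-05). The ketogenic livers stood 21.6% above the high-fat livers (log2 fold change 0.28 ± 0.08, adjusted p = 0.0124).

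The modifier subunit differed less. Gclm had 212, 205, 224, 209.9 and 203 CPM in the ketogenic libraries, 198, 196, 162, 183 and 181 CPM in the high-fat libraries and 248, 224, 255, 212 and 268 CPM in the chow libraries. High-fat libraries lay below all others, and the highest ketogenic library lay above the lowest 2 chow libraries. In high-fat livers Gclm fell by 23.9% against chow (log2 fold change -0.39 ± 0.07, adjusted p = 0.00128). In ketogenic livers it fell by 12.8% against chow (log2 fold change -0.20 ± 0.07, adjusted p = 0.0401), a value that was 0.14 on TPM without scaling between libraries (adjusted p = 0.322, limma). Leaving out KD library 2, 3, 6 or 8 or CD library 15, 17 or 19 ended that call, with adjusted p-values of 0.0656 to 0.105. Gclm was 14.6% higher in ketogenic than in high-fat livers (log2 fold change 0.20 ± 0.07, adjusted p = 0.0464), a call that ended without KD library 2, 3, 4, 6 or 8, HFD library 11, 12 or 14 or CD library 15 or 17 (adjusted p = 0.0522 to 0.132). On TPM with TMM scaling, a choice made after the data were seen, that value was 0.09 (adjusted p = 0.508, limma), and the fall of Gclm in high-fat against chow livers was -0.28 on TPM with and without scaling (adjusted p = 0.0549 and 0.211).

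Gclc reads lay on 1 transcript, Gclc-201, which held over 99% of them in each library. Gclm was divided between the long protein-coding Gclm-201, with 68.4, 63.5 and 68.0% in ketogenic, high-fat and chow libraries, the short Gclm-203, with 16.7, 19.2 and 17.3%, the retained-intron Gclm-205, with 9.51, 9.86 and 9.26%, and Gclm-206, with 5.12, 6.73 and 4.82%. The share of Gclm-201 ran from 66.3 to 72.4% in ketogenic, from 61.1 to 65.9% in high-fat and from 65.7 to 72.8% in chow libraries. High-fat shares lay below all ketogenic shares and overlapped the chow shares by 1 library, and the difference was not tested.

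**Figure D4:**
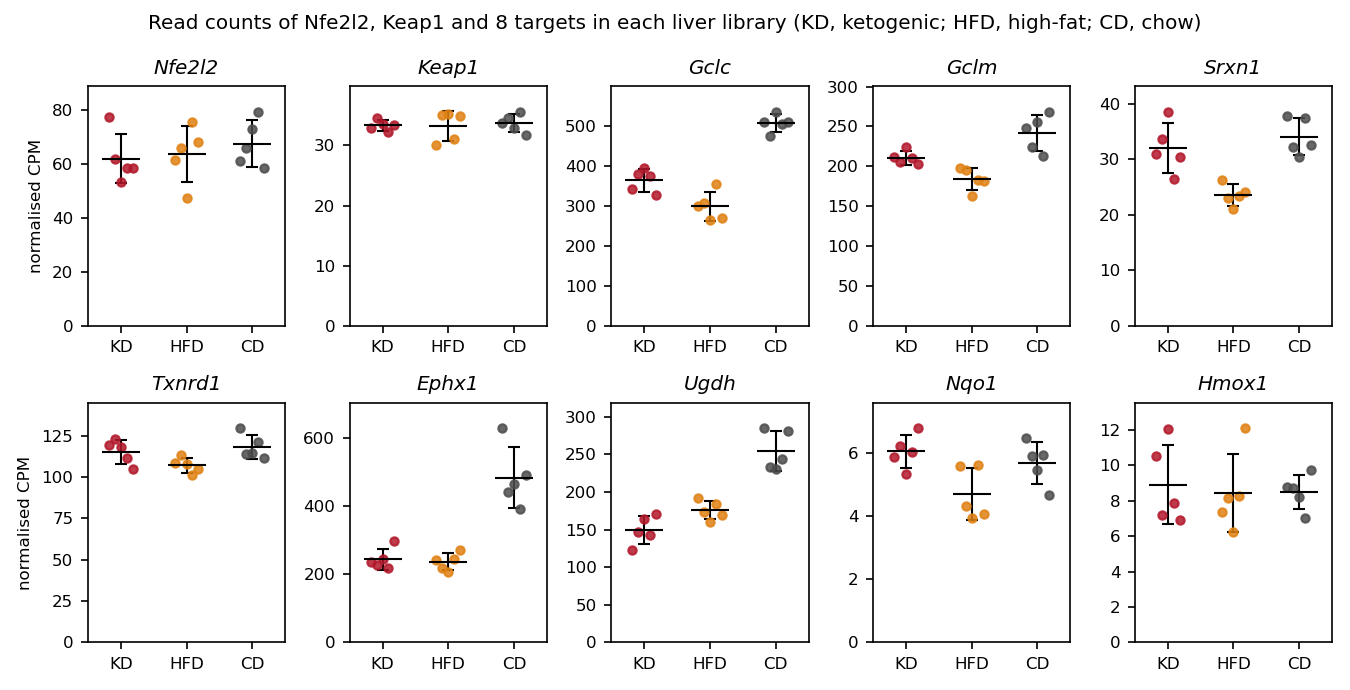
Normalised CPM of each gene in 5 ketogenic (KD), 5 high-fat (HFD) and 5 chow (CD) libraries; points are libraries, bars the mean ± SD, and each axis starts at 0. The chow points of Gclc (475 to 536 CPM), Ephx1 (393 to 629 CPM) and Ugdh (230.3 to 285 CPM) lie above all points of both fat-rich diets, and the high-fat points of Srxn1 lie below those of the other diets.

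Srxn1 and Txnrd1 act on protein thiols. Srxn1, sulfiredoxin, repairs overoxidised peroxiredoxins. Among the 8 genes with a window, it held the most matches only when TGAGNNNGC, a motif added after the data were seen, was counted. It had 31.1, 33.7, 38.6, 26.5 and 30.4 CPM in the ketogenic libraries, 26.3, 23.1, 21.01, 23.4 and 24.1 CPM in the high-fat libraries and 37.8, 32.3, 30.4, 37.5 and 32.6 CPM in the chow libraries. High-fat libraries all lay below the others, with 1 high-fat and 1 ketogenic library close together at 26.3 and 26.5 CPM. Srxn1 fell by 30.9% in high-fat against chow livers (log2 fold change -0.53 ± 0.09, adjusted p = 0.00078) and was 35.9% higher in ketogenic than in high-fat livers (log2 fold change 0.44 ± 0.09, adjusted p = 0.00156). In ketogenic against chow livers its log2 fold change was -0.09 ± 0.09 (adjusted p = 0.48), with overlapping libraries.

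Txnrd1, the cytosolic thioredoxin reductase, had 119.5, 123, 118, 112 and 105 CPM in the ketogenic libraries, 108, 113, 108, 101 and 105 CPM in the high-fat libraries and 129.6, 114, 115, 121 and 112 CPM in the chow libraries. The 3 diets overlapped within a narrow range. Its log2 fold change was -0.04 ± 0.06 in ketogenic against chow livers (adjusted p = 0.69), -0.14 ± 0.06 in high-fat against chow livers (adjusted p = 0.107) and 0.11 ± 0.06 in ketogenic against high-fat livers (adjusted p = 0.194). On TPM without scaling between libraries the first of these was 0.32. Txnrd1-201 held 86.4, 88.2 and 87.5% of its reads in ketogenic, high-fat and chow libraries, and Txnrd1-206 held 8.70, 7.38 and 10.1%.

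Ephx1 and Ugdh had the largest falls of the 10 genes in ketogenic livers. Ephx1, the microsomal epoxide hydrolase, opens reactive epoxides to diols. It had 235, 228, 245, 218 and 297 CPM in the ketogenic libraries, 243, 219, 207, 246 and 271 CPM in the high-fat libraries and 629, 440.5, 466, 393 and 492 CPM in the chow libraries. The lowest chow library lay above the highest library of either fat-rich diet, and the chow libraries were the most spread, with 1 at 629 CPM. The log2 fold change was -0.98 ± 0.11 in ketogenic against chow livers (adjusted p = 4.5e-06) and -1.03 ± 0.11 in high-fat against chow livers (adjusted p = 2.49e-05). Without the highest chow library it was -0.87 and -0.92. The ketogenic and high-fat livers overlapped, with a log2 fold change of 0.04 ± 0.11 (adjusted p = 0.80).

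Ugdh makes UDP-glucuronate, the donor for glucuronidation of drugs, bilirubin and steroids, and its promoter above holds a match on each strand. It had 123, 147, 164, 143 and 171 CPM in the ketogenic libraries, 192, 174, 160.3, 184 and 169.8 CPM in the high-fat libraries and 285, 233, 230.3, 244 and 281 CPM in the chow libraries. Chow libraries lay above all others, and 2 ketogenic libraries lay within the high-fat range. Ugdh fell by 41.3% in ketogenic against chow livers (log2 fold change -0.77 ± 0.09, adjusted p = 3.4e-06) and by 30.9% in high-fat against chow livers (log2 fold change -0.53 ± 0.09, adjusted p = 0.000627). Its log2 fold change in ketogenic against high-fat livers was -0.23 ± 0.09 (adjusted p = 0.0558). That value passed the threshold without KD library 4 (adjusted p = 0.0467) or KD library 8 (adjusted p = 0.0279), and with only genes of at least 1 CPM in at least 5 libraries (adjusted p = 0.0486); on TPM without scaling between libraries it was 0.18 (adjusted p = 0.243). A retained-intron transcript held 6.54, 9.11 and 5.95% of the reads in ketogenic, high-fat and chow libraries, and nearly all others lay on Ugdh-201.

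Nqo1 and Hmox1 were the scarcest of the 10 genes. Nqo1, a quinone reductase widely used as a readout of NRF2, had 5.88, 6.23, 5.32, 6.04 and 6.78 CPM in the ketogenic libraries, 5.60, 4.33, 3.93, 5.61 and 4.05 CPM in the high-fat libraries and 6.46, 5.91, 5.46, 5.92 and 4.67 CPM in the chow libraries. The high-fat libraries fell into 2 at 5.6 CPM and 3 at or below 4.33 CPM, and the ketogenic range overlapped the higher 2. Nqo1 was 28.9% higher in ketogenic than in high-fat livers (log2 fold change 0.37 ± 0.12, adjusted p = 0.0272). Leaving out KD library 3 or 8 or HFD library 10, 11 or 14 ended that call, with adjusted p-values of 0.0549 to 0.0801, and without KD library 3, KD library 8, HFD library 11 or HFD library 14 the count of genes higher in ketogenic than in high-fat livers was 2 in place of 4, with 1 lower (Ugdh) without KD library 8. Its log2 fold change was 0.09 ± 0.12 in ketogenic against chow livers (adjusted p = 0.61) and -0.28 ± 0.12 in high-fat against chow livers (adjusted p = 0.118, and 0.0489 without HFD library 9).

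Hmox1, heme oxygenase 1, degrades heme to biliverdin, iron and carbon monoxide and is also made by liver macrophages. It had 10.6, 7.22, 12.0, 7.87 and 6.93 CPM in the ketogenic libraries, 7.36, 8.14, 6.26, 8.27 and 12.1 CPM in the high-fat libraries and 8.76, 8.74, 8.20, 7.04 and 9.72 CPM in the chow libraries. The highest values belonged to 2 ketogenic libraries and 1 high-fat library, and all 3 diets overlapped. Its log2 fold change was 0.07 ± 0.18 in ketogenic against chow livers (adjusted p = 0.81), -0.01 ± 0.18 in high-fat against chow livers (adjusted p = 0.97) and 0.08 ± 0.18 in ketogenic against high-fat livers (adjusted p = 0.76). The standard error of Hmox1 was the largest of the 10.

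Beside Hmox1, summed CPM of 13 macrophage markers was 182 to 275 in ketogenic, 146 to 242 in high-fat and 188 to 232 in chow libraries. Of these markers, Cd163 rose and Lyz2 fell in ketogenic against chow livers, Vsig4, Cd163, C1qb and Cd5l were higher in ketogenic than in high-fat livers, and 0 changed in high-fat against chow livers by edgeR (3 lower at an unadjusted p under 0.05 and 2 lower by DESeq2). The macrophage gene Adgre1 averaged 7.79 ± 1.45 CPM in ketogenic, 6.79 ± 2.01 CPM in high-fat and 7.87 ± 0.82 CPM in chow libraries, and Clec4f 48.2 ± 5.75, 40.5 ± 7.63 and 44.8 ± 4.56 CPM (SD, n = 5 each). Beside Nqo1, which bile duct cells also make, 6 bile duct markers summed to 24.0 to 29.9 CPM in ketogenic, 26.7 to 42.0 CPM in high-fat and 27.0 to 36.8 CPM in chow libraries, with Krt19 at 0.71 ± 0.13, 1.16 ± 0.77 and 0.82 ± 0.30 CPM. The hepatocyte gene Alb stood at 67014 ± 2394 CPM in ketogenic, 53630 ± 3402 CPM in high-fat and 64017 ± 5122 CPM in chow libraries and fell by 16.2% in high-fat against chow livers. The 8 hepatocyte markers summed to 81184 to 92330 CPM in ketogenic, 70148 to 83307 CPM in high-fat and 74503 to 90312 CPM in chow libraries; against chow, Ttr and Serpina1c fell in ketogenic livers, Ttr and Alb fell and Cps1 rose in high-fat livers, and the list's median log2 fold change was 0.02 in ketogenic and 0.06 in high-fat livers. Beside the genes that fell, 10 pericentral hepatocyte markers summed to 12357 to 14315 CPM in ketogenic, 8121 to 9405 CPM in high-fat and 6165 to 7993 CPM in chow libraries, and 9 periportal markers to 4639 to 7170, 6769 to 8191 and 4449 to 7180 CPM. In ketogenic against chow livers 6 of the 10 pericentral markers rose and Cyp1a2 fell. There 5 of the 9 periportal markers fell (Gls2, Cyp2f2, Hal, Ass1 and Cdh1) and Hsd17b13 and Pck1 rose, with a list median of -0.51. In high-fat against chow livers 4 pericentral markers rose and 1 fell, and 2 periportal markers rose and 0 fell by edgeR (1 by DESeq2). Of all genes tested, 16.2% rose and 14.6% fell on the ketogenic and 8.30% and 7.32% on the high-fat diet. All 6 erythroid markers tested and 5 of 6 B and plasma cell markers fell in ketogenic against chow livers. No marker was at 0 in every library, and the part of these markers in the values of the 10 genes was not tested.

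Spread between libraries of 1 diet also differed among the genes. The coefficient of variation of normalised CPM in Hmox1 was 25.3% in ketogenic, 26.2% in high-fat and 11.5% in chow libraries. In Keap1 it was 2.68, 7.57 and 4.43%, and in Txnrd1 it was 6.25, 4.26 and 6.18%. Nfe2l2 itself lay at 14.7, 16.5 and 12.7%, above Gclc (7.68, 11.9 and 4.26%) and Gclm (4.05, 7.66 and 9.49%) in each diet. Ephx1 had 12.6, 10.5 and 18.4%, Ugdh 12.6, 7.08 and 10.4%, Srxn1 13.9, 8.12 and 9.77%, and Nqo1 8.80, 17.8 and 11.8%.

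Genes whose pattern over the 15 libraries was nearest to that of each called gene were taken by the root mean square difference of centred log2 CPM. For Ephx1 these were Htatip2 (0.19) and Ugt2b35 (0.21), against a root mean square of 0.50 for Ephx1 about its own mean. Ugdh was nearest to Ugt2b5 (0.11) and Aox1 (0.11), against 0.35 for Ugdh itself. Gclc was nearest to Dsg2 (0.15) and Dlat (0.15), against 0.34. Gclm was nearest to Rnf11 (0.07) and Nars (0.07), against 0.19. Srxn1 was nearest to Arpp19 (0.09) and Mta3 (0.11), against 0.27. Nqo1 was nearest to Agk (0.11) and Impg2 (0.12), against 0.23. None of the nearest genes of the 6 was another of the 10. Only 2 were taken for each from all genes tested, so that absence does not show whether the 10 genes vary together.

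The other genes of the pathway were read in 9 lists of 111 genes, of which 110 were tested. In ketogenic against chow livers 24 rose and 24 fell, in high-fat against chow livers 4 rose and 23 fell, and in ketogenic against high-fat livers 33 were higher and 7 lower. These splits depended on the scaling. In ketogenic against chow livers, total counts gave 31 higher and 20 lower, and TPM without scaling between libraries (limma) gave 48 and 9. In high-fat against chow livers total counts gave 3 higher and 22 lower, and that TPM gave 0 and 14. In ketogenic against high-fat livers total counts gave 39 higher and 5 lower, and that TPM gave 65 and 1. Of all genes tested, 16.2% rose and 14.6% fell in ketogenic against chow livers, and 8.30% rose and 7.32% fell in high-fat against chow livers. In ketogenic against high-fat livers 13.1% of all genes were higher and 13.0% lower. The median log2 fold change over the lists was -0.01, -0.07 and 0.08 in these comparisons, against -0.01, 0.01 and -0.02 over all genes tested.

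Among 15 regulators and partners of Nfe2l2 and Keap1 the medians were 0.01, 0.03 and -0.06. Nfe2l1, a relative of Nfe2l2, rose in ketogenic (log2 fold change 0.63 ± 0.07, adjusted p = 2.25e-06) and in high-fat livers (0.28 ± 0.07, adjusted p = 0.0117) against chow. Gsk3b and Maff also rose and Dpp3 and Sqstm1 fell in ketogenic against chow livers, while Mafg, a small MAF partner of NRF2, rose by 35.4% and Sqstm1 fell in high-fat against chow livers. In ketogenic against high-fat livers Nfe2l1 and Maff were higher and Mafg was lower.

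Around Gclc and Gclm, 14 genes of glutathione synthesis and peroxide reduction had medians of 0.08, -0.04 and 0.15. Gsr, glutathione reductase, fell by 20.5% in ketogenic and by 24.2% in high-fat against chow livers. Gss, which makes glutathione from the product of Gclc and Gclm, rose in ketogenic against chow livers (log2 fold change 0.35 ± 0.09), where Gclc fell, and Glrx, Gpx1 and Sod2 rose with it. These 4 genes and Gpx4 were higher in ketogenic than in high-fat livers, as Gclc and Gclm were. Around Srxn1 and Txnrd1, 15 thioredoxin and peroxiredoxin genes had medians of 0.06, -0.07 and 0.07. Txn1, the substrate of Txnrd1, fell by 17.6% in ketogenic and by 24.6% in high-fat livers against chow, and Txnrd3 fell by 40.1% in ketogenic and by 19.7% in high-fat livers. Txnip, an inhibitor of thioredoxin, and Prdx6 rose and Prdx4 fell in ketogenic against chow livers, and Prdx1, a substrate of Srxn1, fell in high-fat against chow livers. Txnip, Prdx1, Txnrd2 and Prdx3 were higher and Txnrd3 was lower in ketogenic than in high-fat livers.

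Of 9 genes that supply NADPH, the reductant of Txnrd1 and Nqo1, with medians of -0.12, -0.33 and -0.07, Me1, Pgd, Tkt and G6pdx fell against chow on both diets and Idh1 fell in high-fat livers. Me1, malic enzyme, averaged 147 ± 13.0 CPM in ketogenic, 196 ± 35.0 CPM in high-fat and 664 ± 184 CPM in chow libraries. Nnt rose by 68.5% in ketogenic against chow livers, a symbol that covers 2 annotated genes that could share reads. Around Hmox1, 11 heme and iron genes had medians of 0.02, -0.17 and 0.23. Por, which feeds electrons to Hmox1, rose by 154% in ketogenic and by 37.5% in high-fat against chow livers, Fech, Hmox2 and Alas1 rose in ketogenic livers, and Ftl1 fell on both diets. Blvrb, a biliverdin reductase, Fth1 and Slc48a1 fell in high-fat against chow livers. Ftl1, Fth1 and Prdx1 have near-identical processed copies in the genome, so their values are uncertain.

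Of 13 genes that handle carbonyls, quinones and epoxides, with medians of -0.12, -0.16 and 0.27, 4 rose and 4 fell in ketogenic against chow livers. Ephx2, the soluble epoxide hydrolase, rose (log2 fold change 0.30 ± 0.08) where Ephx1 fell, with Aldh3a2 (1.24 ± 0.11), Aldh9a1 and Aldh1a1. Nqo2, the relative of Nqo1, fell (log2 fold change -0.45 ± 0.09) with Cyb5r3 (-0.94 ± 0.11), Akr7a5 and Ptgr1, where Nqo1 was not called. In high-fat against chow livers Cbr1, a carbonyl reductase, fell by 34.6%, and Ptgr1 fell. Of 8 genes of the glucuronate pathway around Ugdh, with medians of -0.24, -0.13 and -0.12, Ugp2, which makes UDP-glucose for Ugdh, and the transporters Slc35d1 and Slc35b1 fell in ketogenic against chow livers by 14.1, 26.2 and 20.3%, as did Uxs1. In high-fat against chow livers 0 of these 8 changed by edgeR, with 1 higher and 4 lower at an unadjusted p under 0.05 and 2 lower by DESeq2. Of all genes tested, 8.30% rose and 7.32% fell in that comparison.

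Of 13 exporters and other genes linked to NRF2, with medians of 0.02, -0.11 and 0.09, Abcc4 and Pir fell against chow on both diets. Trib3 and Slc6a9 rose in ketogenic against chow livers, and Psat1 fell in high-fat against chow livers. Ephx1, Ugdh and Nqo1 are also known targets of the receptors AHR, CAR or PXR, whose list of 15 genes had medians of 0.28, 0.02 and 0.25. Of these, Por, Rxra, Nr1i3, Nr1i2, Ahr and Alas1 rose and Cyp1a1, Cyp1a2 and Cyp2c29 fell in ketogenic against chow livers. Cyp1a1, the leading AHR target, averaged 0.58 ± 0.10 CPM in ketogenic, 0.37 ± 0.09 CPM in high-fat and 1.44 ± 0.20 CPM in chow libraries. Cyp1a2, Cyp2c29 and Cyp3a11 fell with it in high-fat against chow livers, where Rxra and Por rose. In the glutathione, thioredoxin, NADPH, carbonyl and exporter lists 0 genes rose in high-fat against chow livers by edgeR, with 0 or 1 in each at an unadjusted p under 0.05 and 0 by DESeq2 except 1 among the exporters. Of all genes tested, 8.30% rose in that comparison, and these lists are short, with 9 to 15 genes each.

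**Figure D5:**
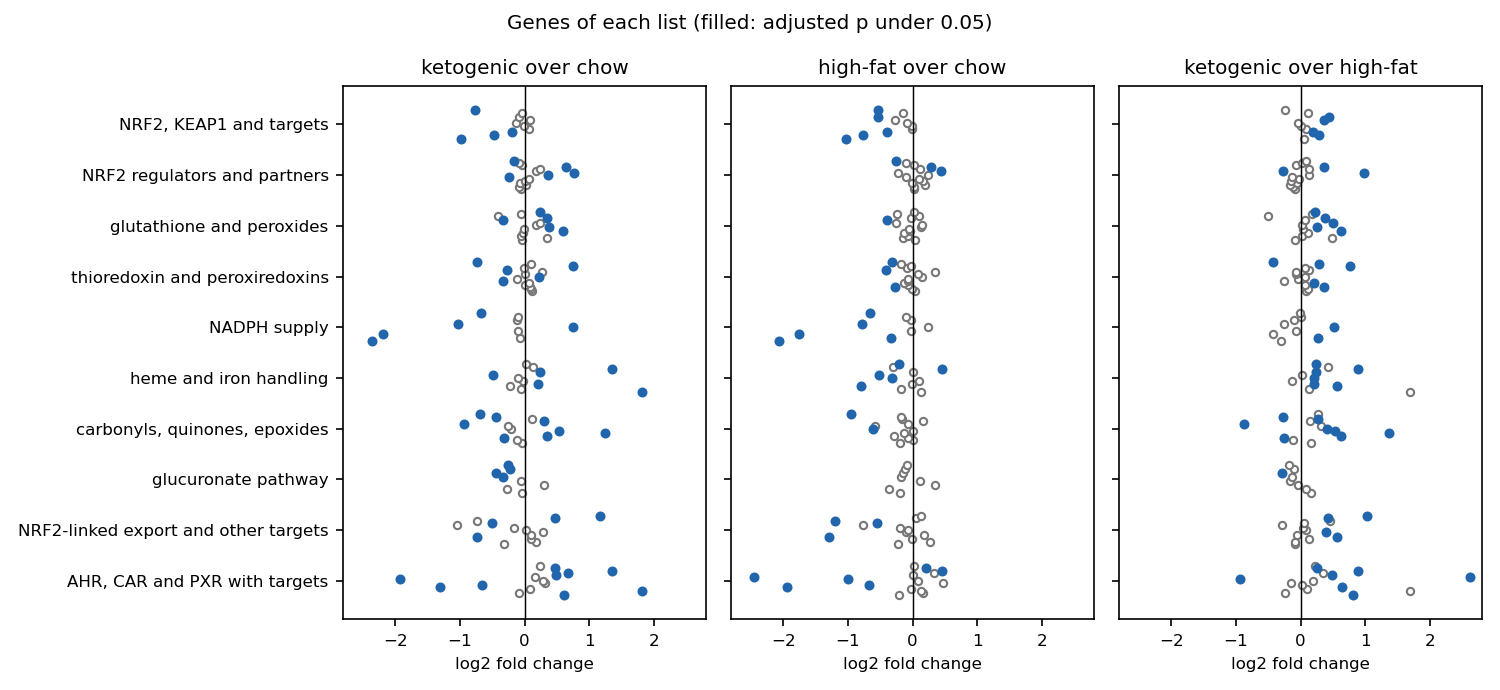
Log2 fold change of each gene tested in the 10 NRF2 genes and 9 lists around them, in ketogenic over chow, high-fat over chow and ketogenic over high-fat livers; each point is a gene, and filled points have an adjusted p under 0.05 in edgeR. The called points of the first row lie left of 0 in both comparisons with chow and right of 0 in ketogenic over high-fat livers; Gclm in ketogenic over chow livers turned to 0.14 on TPM without scaling between libraries.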

How the data were processed

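Total RNA of 15 mouse livers was sequenced, with 5 libraries per diet. The submitters' processing notes list Trimmomatic 0.36 (read trimming), kallisto 0.44 (assignment of reads to transcripts), edgeR 3.28 and GRCm38.p6, without roles or settings. The authors deposited, per the file headers, an estimated count and a TPM value for each of 106332 transcripts. Neither the annotation release nor the kit is stated in the sources at hand, so strand and antisense reads cannot be told apart.

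Estimated counts were summed per gene with GENCODE M21 (105734 transcripts, 25731 genes) and rounded to whole numbers. Left out were 598 unmatched transcripts (0.184 to 0.223% of the reads). edgeR 4.0.16 (R 4.3.3) fitted all 15 libraries, which then share 1 estimate of the spread (robust quasi-likelihood, TMM, filterByExpr with minimum count 10 and total 15, 12 residual degrees of freedom). The fit's biological coefficient of variation was 0.131 in common over genes, and Nqo1 and Hmox1 had the fewest reads of the 10 genes. The scripts were tested on simulated counts. Each pair of diets was tested, with Benjamini-Hochberg adjustment over 13967 genes. Normalised CPM used TMM library sizes. TPM, as deposited by the authors, was summed per gene and served for levels between genes and, as log2(TPM + 0.5), in limma 3.58.1. Other alternatives used RLE factors, total counts, no filter, at least 1 CPM in at least 5 libraries, only the 2 diets compared, DESeq2 1.42.0 and each library left out. TPM with TMM scaling and the motif TGAGNNNGC were added after the data were seen.

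The members and lists were chosen with earlier results of these data known. The rule for naming took up to 3 list genes with the smallest adjusted p in ketogenic against chow livers and the smallest in each other comparison, the 2 genes nearest to each called member, and Alb, Adgre1, Clec4f and Krt19. Predicted genes were left out of the nearest genes. Other list genes that passed the test were named after their values were seen. The annotated start of Ugdh differs between RefSeq and GENCODE. No source at hand states batch, sex or food intake, and a batch that followed the diets cannot be told apart from them.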

Additional observations from a re-analysis of the deposited data

Results flagged for a closer look

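For 43 named genes, 129 groups of 5 libraries were checked for 1 library standing apart, by its gap to the nearest of the others over the whole range. Chance flags about 1 in 20 groups, and 5 were flagged, none of them among the 10 NRF2 genes. Txnip was lowest in KD library 6, at 58.4 CPM, with 71.5 to 76.3 CPM in the other ketogenic libraries. Dpp3 was lowest in KD library 8, at 34.6 CPM, with 36.5 to 37.2 CPM in the others. Aldh9a1 was lowest in HFD library 14, at 198 CPM, with 228 to 237 CPM in the others. Alb was lowest in CD library 19, at 55148 CPM, with 65104 to 68416 CPM in the others. Krt19 was highest in CD library 18, at 1.35 CPM, with 0.62 to 0.80 CPM in the others.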

How the results depend on the processing

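The 30 fold changes of the 10 genes (10 genes in 3 comparisons) were recomputed under 23 alternatives, of which 15 leave out 1 library each. Of 690 values, 652 kept their direction and side of the threshold (28 sign changes in which neither value was called are counted here), 30 lost a call, 6 gained one and 2 reversed; 19 of 30 fold changes were unchanged in this sense under all 23. Ephx1 and Ugdh against chow on both diets, Gclc in high-fat against chow livers, and Gclc and Srxn1 in ketogenic against high-fat livers were called under all 23. Both reversals were on TPM without scaling between libraries, where the median gene moved by 0.24: Gclm at 0.14 and Txnrd1 at 0.32 in ketogenic against chow livers. On the same scale, in ketogenic against chow livers, 2 of the 10 genes were called higher (Nqo1 and Txnrd1) and 2 lower, in place of 0 and 4, and 48 list genes were higher and 9 lower, in place of 24 and 24. In high-fat against chow livers it called 3 of the 10 genes and 14 list genes, and in ketogenic against high-fat livers 5 of the 10, with Txnrd1 (adjusted p = 0.00623) gained, and 66 list genes. Gclc in ketogenic against chow livers (adjusted p = 0.357) and Gclm and Srxn1 in high-fat against chow livers (0.211 and 0.0556) lost their calls there. Gclm in ketogenic against chow livers also lost its call with total-count scaling (0.232), no filter (0.0762) and TPM with TMM scaling (0.136). TPM with TMM scaling also ended the calls of Gclm in high-fat against chow (0.0549) and in ketogenic against high-fat livers (0.508). Ugdh in ketogenic against high-fat livers was gained with at least 1 CPM in at least 5 libraries (0.0486), which gives 4 of the 10 genes higher and 1 lower. Leaving out 1 library, 2 to 4 of the 10 genes were called in ketogenic against high-fat livers, 3 to 4 in ketogenic against chow livers and 5 to 6 in high-fat against chow livers. The cause of these changes was not tested. With total-count scaling, 2753 genes were higher and 1265 lower in ketogenic against chow livers, against 2258 and 2038 with TMM, and 2305 were higher and 960 lower in ketogenic against high-fat livers, against 1826 and 1818. TPM without scaling gave 4820 higher and 351 lower, 123 and 354, and 4953 and 204 in ketogenic against chow, high-fat against chow (1159 and 1023 with TMM) and ketogenic against high-fat livers. No paired analysis was possible because the label numbers do not recur between diets. Reads were fewest for Nqo1, at 134 or more per library.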
